A study of Mus musculus with 6 samples.

Results

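The YAP, TAZ, TEAD and Vgll transcription complex was described here by 9 genes, picked by symbol: the coactivator genes *Yap1* and *Wwtr1* (which encodes TAZ), the DNA-binding factor genes *Tead1*, *Tead2*, *Tead3* and *Tead4*, and the cofactor genes *Vgll1*, *Vgll3* and *Vgll4*. All 9 were among the 17784 genes of the expression table, and 9 of 9 passed the filter on low counts, as did 12999 genes in all. Their RNA was measured by bulk RNA-seq in mouse corneal epithelium from 3 control and 3 *Ptch1*-ablated samples. The *Ptch1*-ablated samples came from *Prrx1-CreERT;Ptch1* f/f mice, in which tamoxifen switches on a Cre recombinase driven by *Prrx1*, a gene of keratocytes and other ocular mesenchymal cells, so that the deletion was directed at the stroma and not at the epithelium that was sequenced. The controls, titled WT in the labels, are written *Ptch1* f/f in the study's pictures of these groups, by which both groups carry the floxed allele, while its text calls them control mice. The floxed line had been backcrossed to C57BL/6, the study used animals of both sexes, and mice of both groups received 3 doses of tamoxifen. The labels give an age of 10 weeks and an interval of 2 months under tamoxifen for both groups, whereas the study's text gives induction at 2 months of age. The epithelium was lifted off with EDTA, and the study counted the 3 samples of each group as biological replicates, although the labels do not say which animals each came from. The comparison asks how loss of *Ptch1*, which releases Hedgehog signalling in the stroma, is followed by changes in the overlying epithelium.

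YAP and TAZ are coactivators without a DNA-binding domain of their own. The Hippo kinases phosphorylate them and hold them in the cytoplasm, and when that restraint is low they enter the nucleus and bind TEAD proteins, which recognise a short DNA motif and switch on genes of growth, adhesion and matrix sensing. Vestigial-like (Vgll) proteins bind the same TEAD surface, so they can compete with YAP and TAZ or serve as coactivators in their own right. In stratified epithelia such as the cornea the complex is known for its role in the basal layer, where cells sense the stiffness of the substrate. RNA levels say nothing of phosphorylation or of where the proteins are in the cell, and they need not follow the amount of protein. By Western blot the study reported less total YAP protein in *Ptch1*-ablated corneas, with more phosphorylated YAP and LATS1.

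The TEAD genes are paralogs, so the stretch of coding sequence in which *Tead3* and *Tead4* are most alike is shown to make clear where reads could be shared. Each line is 5′ to 3′ from the GENCODE M21 transcript, and capitals mark bases that differ from *Tead4*.
Tead1 (coding bases 1147 to 1206): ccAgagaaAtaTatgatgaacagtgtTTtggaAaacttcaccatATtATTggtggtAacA
Tead2 (coding bases 1174 to 1233): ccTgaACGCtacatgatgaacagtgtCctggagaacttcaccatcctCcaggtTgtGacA
Tead3 (coding bases 1234 to 1293): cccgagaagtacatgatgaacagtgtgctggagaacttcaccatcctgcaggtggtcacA
Tead4 (coding bases 1120 to 1179): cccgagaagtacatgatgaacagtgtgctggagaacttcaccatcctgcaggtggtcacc
*Tead3* differed from *Tead4* at 1 base of these 60, whereas *Tead1* differed at 13 and *Tead2* at 10. The longest identical coding run of *Tead3* and *Tead4* was 59 bases, and that of any other pair was at most 35 bases. Over whole genes, 10 of the 3681 distinct 50-base words of *Tead4* (0.272%) also occurred in another gene, which in each case was *Tead3*. The expected counts of *Wwtr1*, *Tead1*, *Tead3*, *Tead4* and *Vgll4* were not whole in any library, so part of their reads was divided among alternatives by the quantification. For *Tead3* and *Tead4* the fractions made up a whole number in every library, as with 3574.79 and 89.21 expected counts in control 1. Reads were thus divided between these 2 genes. How many is not given, and the level of *Tead4*, the scarcer gene, is uncertain to that extent. In the annotation, exons of *Yap1* overlapped the antisense gene *Gm20416* by 116 bases and exons of *Tead2* overlapped *Cd37* by 13 bases, and whether the libraries kept strand is not given in the sources used here.

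RefSeq promoters, from 250 bases before to 50 after a start site (mouse build GRCm38.p6), were matched for 7 of the 9 genes, and those of *Tead1* and *Tead4* were not matched. The TEAD core motif, CATTCC on 1 strand or GGAATG on the other, was searched in them because YAP and TEAD are known to act on genes of their own pathway. The promoters of *Wwtr1* and *Vgll1*, higher in every ablated library, and of *Yap1*, whose groups overlapped, are printed 5′ to 3′ on the gene's strand with the motif in capitals.
Wwtr1, chr3:57575861-57576160, minus strand: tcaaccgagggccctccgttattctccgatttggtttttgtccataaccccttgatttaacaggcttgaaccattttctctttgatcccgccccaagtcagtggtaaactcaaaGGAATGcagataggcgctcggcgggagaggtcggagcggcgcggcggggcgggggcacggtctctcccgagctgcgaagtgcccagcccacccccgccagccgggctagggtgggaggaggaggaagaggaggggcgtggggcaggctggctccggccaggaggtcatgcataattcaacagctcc
Vgll1, chrX:57087856-57088155, plus strand: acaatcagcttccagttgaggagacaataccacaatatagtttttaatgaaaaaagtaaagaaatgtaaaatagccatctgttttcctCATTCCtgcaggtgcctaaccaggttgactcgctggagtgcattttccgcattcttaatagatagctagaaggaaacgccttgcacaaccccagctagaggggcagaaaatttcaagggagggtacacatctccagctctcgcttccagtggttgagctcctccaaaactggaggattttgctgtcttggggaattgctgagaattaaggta
Yap1, chr9:8004547-8004846, minus strand: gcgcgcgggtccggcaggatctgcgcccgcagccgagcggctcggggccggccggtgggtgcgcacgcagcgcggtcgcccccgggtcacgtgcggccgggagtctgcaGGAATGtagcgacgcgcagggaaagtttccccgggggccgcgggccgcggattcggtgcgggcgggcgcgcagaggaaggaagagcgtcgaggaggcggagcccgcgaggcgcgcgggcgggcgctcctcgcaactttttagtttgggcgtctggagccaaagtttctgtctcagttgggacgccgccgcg
Each of these 3 windows held 1 match. A match was found for 6 of the 7 genes, *Tead2* being the exception, against 16.6% of all 27025 genes with a promoter in the table and 14.7% of its 32851 promoters. Some genes have several promoters in the table, and the shares were not matched for base composition. The AP-1 motif TGANTCA, which reads the same on both strands, had a match for 0 of the 7 genes and for 8.97% of all genes. Such a match is a description of letters, and whether any factor binds there was not measured.

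Every library held between 20296741 and 20625813 expected counts in all, so depth was nearly equal. The deletion of *Ptch1* (gene 19206), the Hedgehog receptor, was directed at the stroma and not at these cells. In the epithelium *Ptch1* had 7.31, 9.70 and 10.2 TPM in the controls and 5.28, 6.33 and 7.01 in the ablated libraries (log2 fold change -0.51, standard error 0.127, adjusted p = 0.0401 in edgeR). TPM is RSEM's transcript level, scaled for gene length and depth. *Krt12*, the corneal epithelial keratin, lay between 37107 and 49487 TPM in all 6 libraries, whereas *Krt14*, a basal layer keratin, rose, with 534 to 644 TPM in the controls and 2420 to 5798 in the ablated libraries (log2 fold change 2.81, adjusted p = 0.00769 in edgeR). Of the same epithelial markers, *Pax6* and *Tkt* were lower in every ablated library. Neither passed the test (adjusted p = 0.112 and 0.18 in edgeR). *Pax6* had 409 to 433 TPM in the controls and 302 to 386 in the ablated libraries, and *Tkt* 6194 to 6704 and 3864 to 5819. The groups overlapped for *Krt5* (23374.7 to 26326.5 TPM), *Trp63* (157 to 196 TPM), *Aldh3a1*, *Cdh1* and *Epcam*. *Krt15* overlapped too, with 847 to 1528 TPM in the controls and 1066 to 3296 in the ablated libraries. The 10 keratocyte markers in the table summed to between 7.89 and 13.2 TPM in 5 libraries and to 60.5 in control 3, with the keratocyte protein gene *Kera* at 0 in 4 libraries and at most 1 count in the other two. The 6 conjunctival and goblet cell markers summed to between 1391 and 2324 TPM in the controls and to between 2180 and 4677 in the ablated libraries. The keratin gene *Krt13* was the larger part of that sum in every library. The Y-linked gene *Ddx3y* was present in every library, at 13.4 to 14.4 TPM in the controls and 16.2 to 25.6 in the ablated libraries. *Eif2s3y*, also Y-linked, had 37.2 to 41.5 TPM in the controls and 47.0 to 76.1 in the ablated libraries. The Y-linked genes *Kdm5d* (4.84 to 7.24 and 6.47 to 8.21 TPM) and *Uty* (9.31 to 12.1 and 9.63 to 10.3 TPM) overlapped between the groups. On the first principal component ablated 1 lay apart at 55.5, beyond ablated 2 and 3 at 19.8 and 20.8 and the controls from -35.8 to -28.0. The part of these differences in the results below was not tested, and in bulk epithelium a change in the makeup of the cells cannot be told apart from a change in RNA per cell.

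In *Ptch1*-ablated epithelium *Tead4* was about 2.4 times as high as in controls and *Wwtr1* about 1.5 times as high, while *Yap1*, *Tead3* and *Vgll4*, the most abundant members, overlapped between the groups and did not pass the test. *Vgll1* was higher in every ablated library but missed the threshold of the test. Each gene was tested with edgeR's quasi-likelihood test over all 12999 genes, with Benjamini-Hochberg adjusted p, and calls needed both an adjusted p no higher than 0.05 and a difference of 2-fold or more. By that rule 1 of 9 members was called, *Tead4*, against 2.34% of all tested genes called higher. Without a minimum fold 2 of 9 members were higher, *Tead4* and *Wwtr1*, against 7.61% of all tested genes, and 0 of 9 were lower against 6.41%. The count of lower members was also 0 at an unadjusted p of at most 0.05, in DESeq2 and in limma-voom. The groups did not overlap, with every ablated library above every control, for 4 of 9 members, *Wwtr1*, *Tead1*, *Tead4* and *Vgll1*, against 19.7% of all tested genes. With 9 members these shares are coarse, and no claim about the set as a whole is drawn from them.

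**Figure D1:**
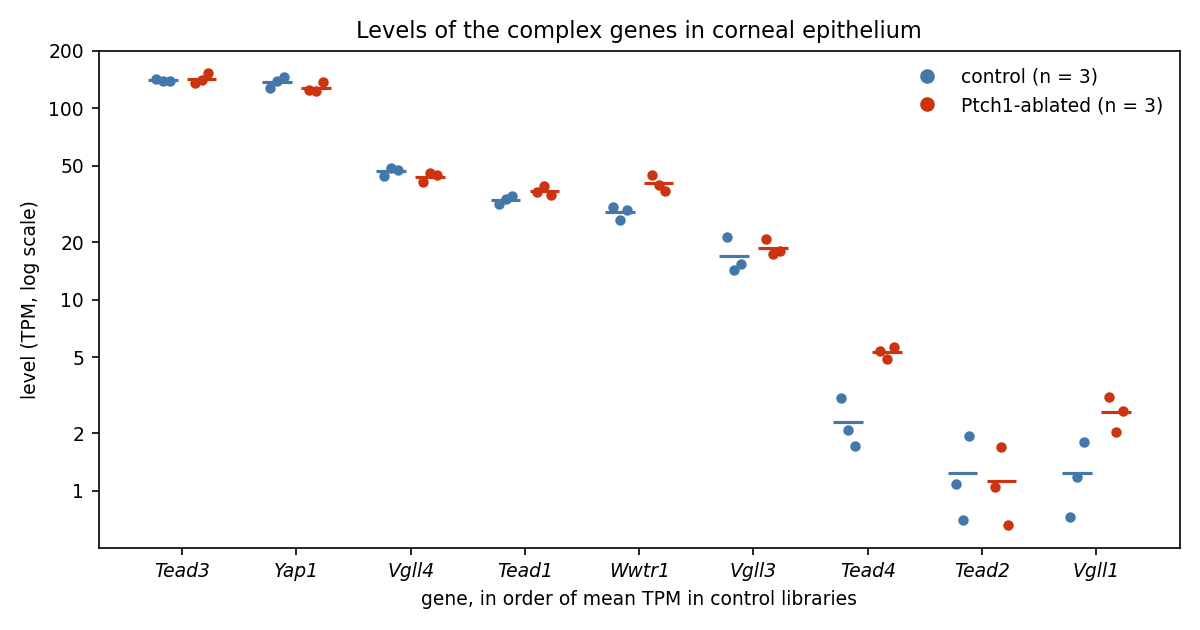
Levels of the 9 genes in TPM (vertical axis, log scale) in the 3 control libraries (blue) and the 3 *Ptch1*-ablated libraries (red), each point 1 library and each bar the group mean. *Tead3* and *Yap1* lie above all other members in all 6 libraries, and the groups are separated for *Wwtr1*, *Tead4* and *Vgll1*, and narrowly for *Tead1*.

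*Yap1* (gene 22601), the main effector of the Hippo pathway, was the most abundant coactivator gene. Its level was 128, 138 and 146 TPM in controls 1, 2 and 3 and 124, 123 and 138 TPM in ablated 1, 2 and 3. The groups overlapped, control 1 lying below ablated 3. The means were 138 ± 9.06 and 129 ± 8.20 TPM (SD, n = 3 each), and the log2 difference was -0.06 (standard error 0.0629, adjusted p = 0.526 in edgeR). Between single libraries, the ratio of ablated to control TPM ranged from 0.843 to 1.08.

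*Wwtr1* (gene 97064), which encodes the YAP paralog TAZ, had 30.6, 26.2 and 29.5 TPM in the controls and 44.8, 39.9 and 36.9 TPM in the ablated libraries. All 3 ablated libraries lay above all controls, with ablated 1 the highest. The log2 difference was 0.54 (standard error 0.119, adjusted p = 0.0292 in edgeR), a fold of 1.45 that stayed under the 2-fold needed for a call. The adjusted p rose above 0.05 when control 1, control 2, control 3 or ablated 2 was left out (0.0523, 0.116, 0.0755 and 0.0632), with the log2 fold change between 0.43 and 0.63 over the 6 libraries left out in turn. Without ablated 1 it was 0.43 (adjusted p = 0.0419 in edgeR).

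The balance of the coactivator transcripts restates the levels of *Wwtr1* and *Yap1* as a share and is not separate evidence. *Wwtr1* made up 19.3, 15.9 and 16.7% of the summed TPM of *Yap1* and *Wwtr1* in the controls and 26.5, 24.4 and 21.1% in the ablated libraries. The groups did not overlap, and the means of 17.3 ± 1.73% and 24.0 ± 2.73% (SD, n = 3 each) differed by 6.68 percentage points. A two-sided exact permutation test gave p = 0.1, the smallest that 3 libraries against 3 allow. Single ablated libraries exceeded single controls by 1.81 to 10.6 percentage points. The sum of both genes was 159 to 176 TPM in the controls and 163 to 175 TPM in the ablated libraries, and these ranges overlapped.

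*Tead4* (gene 21679), a TEAD family member known from the trophectoderm and from skeletal muscle, was the member with the largest log2 fold change. It had 3.07, 2.09 and 1.71 TPM in controls 1, 2 and 3 and 5.40, 4.91 and 5.62 TPM in ablated 1, 2 and 3. The lowest ablated library lay 1.60 times above the highest control, and control 1 was the nearest to the ablated group. The means were 2.29 ± 0.702 and 5.31 ± 0.364 TPM (SD, n = 3 each), and the log2 difference was 1.25 (standard error 0.230, adjusted p = 0.0188 in edgeR). Of all tested genes, 2.55% had a higher log2 fold change. These levels rested on 89.2, 60.1 and 49.1 expected counts in the controls and 159, 140 and 156 in the ablated libraries. The exact Poisson 95% intervals of the rounded counts cover counting error only, and not the division of reads with *Tead3*. They were 71.5 to 110, 45.8 to 77.2 and 36.3 to 64.8 counts in the controls and 135 to 186, 118 to 165 and 132 to 182 in the ablated libraries. Within that limit, no control interval reached an ablated one. Without control 2 the log2 fold change was 1.18 and the adjusted p rose to 0.0908, in a fit that called 59 genes in place of 420. Without ablated 1, the library that lay apart, *Tead4* was still called (adjusted p = 0.035 in edgeR).

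*Tead3* (gene 21678) had the highest mean level of the members in both groups. Its level was 143, 139 and 140 TPM in the controls and 135, 140 and 153 TPM in the ablated libraries. Ablated 1 was the lowest and ablated 3 the highest of the 6, so the control range lay inside the ablated one. The log2 difference was 0.06 (standard error 0.0626, adjusted p = 0.522 in edgeR), and ratios between single libraries ran from 0.945 to 1.10.

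*Tead1* (gene 21676), the TEAD gene most widely expressed across tissues, had 31.5, 33.7 and 34.7 TPM in the controls and 36.4, 39.3 and 35.2 TPM in the ablated libraries. The groups were separated, though control 3 and ablated 3 lay close together. The log2 fold change of 0.19 (standard error 0.0746) had an adjusted p of 0.120 in edgeR and did not pass the test.

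*Tead2* (gene 21677), known from the early embryo and the neural folds, was near the limit of measurement. It had 1.09, 0.70 and 1.94 TPM in the controls and 1.04, 1.69 and 0.66 TPM in the ablated libraries, from 22, 13 and 38 counts and from 21, 33 and 12 counts. The groups overlapped throughout. Its log2 fold change of -0.09 had a standard error of 0.490 (adjusted p = 0.921 in edgeR) and turned to 0.37 without control 3 and to 0.22 without ablated 3. At this depth and spread no difference was detectable.

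**Figure D2:**
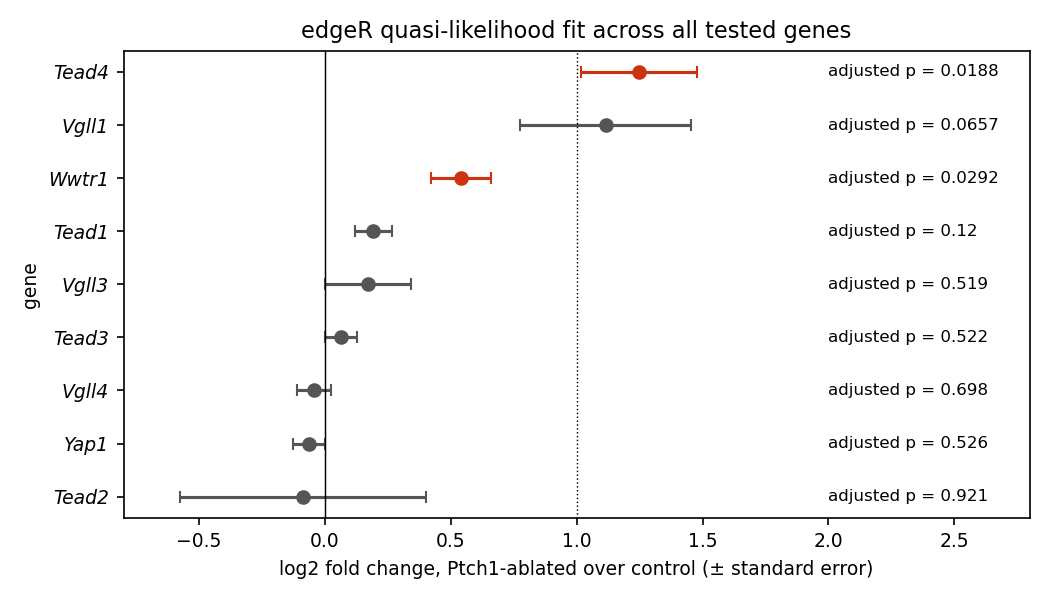
Log2 fold change of each gene, *Ptch1*-ablated over control (horizontal axis, bars are standard errors), from the edgeR fit to 3 libraries a group, with the adjusted p beside it. Red marks an adjusted p of at most 0.05, the dotted line marks a 2-fold difference, and *Tead4* (1.25) and *Wwtr1* (0.54) are the 2 genes in red.

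The composition of the TEAD pool was taken as each gene's share of the summed TPM of *Tead1* to *Tead4*, a measure that a common change in scale cannot move. *Tead3* made up most of it, with 80.1, 79.2 and 78.5% in the controls and 75.9, 75.4 and 78.6% in the ablated libraries, and the groups overlapped. *Tead1* followed with 17.6, 19.2 and 19.5% against 20.4, 21.1 and 18.1%, also overlapping. *Tead2* stayed between 0.340 and 1.09% in all 6 libraries.

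*Tead4* was the TEAD gene whose share separated the groups. Its share was 1.72, 1.19 and 0.959% in the controls and 3.03, 2.64 and 2.90% in the ablated libraries. The means of 1.29 ± 0.388% and 2.86 ± 0.200% (SD, n = 3 each) differed by 1.56 percentage points, and single libraries by 0.920 to 2.07, which restates the level of *Tead4* and is not separate evidence. The two-sided exact permutation test gave p = 0.1, the smallest this design allows, and 0.4 after Benjamini-Hochberg adjustment over the 4 shares. For *Tead3* the difference was -2.58 points (exact permutation p = 0.2, adjusted 0.4), for *Tead1* 1.11 points (exact permutation p = 0.4, adjusted 0.533) and for *Tead2* -0.09 points (exact permutation p = 0.7, adjusted 0.7). *Tead4* was a small fraction of the TEAD transcripts in both groups, and per *Tead3* transcript it stood at between 0.0122 and 0.0215 in the controls and at between 0.0350 and 0.0399 in the ablated libraries.

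The summed TEAD level was 179, 175 and 178 TPM in the controls and 178, 186 and 194 TPM in the ablated libraries. Ablated 1 lay within the control range and the other two lay above it, and the log2 difference of 0.07 had an exact permutation p of 0.3. Coactivator transcripts, *Yap1* plus *Wwtr1*, stood at 0.890 to 0.987 per TEAD transcript in the controls and at 0.877 to 0.949 in the ablated libraries, with overlapping ranges.

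**Figure D3:**
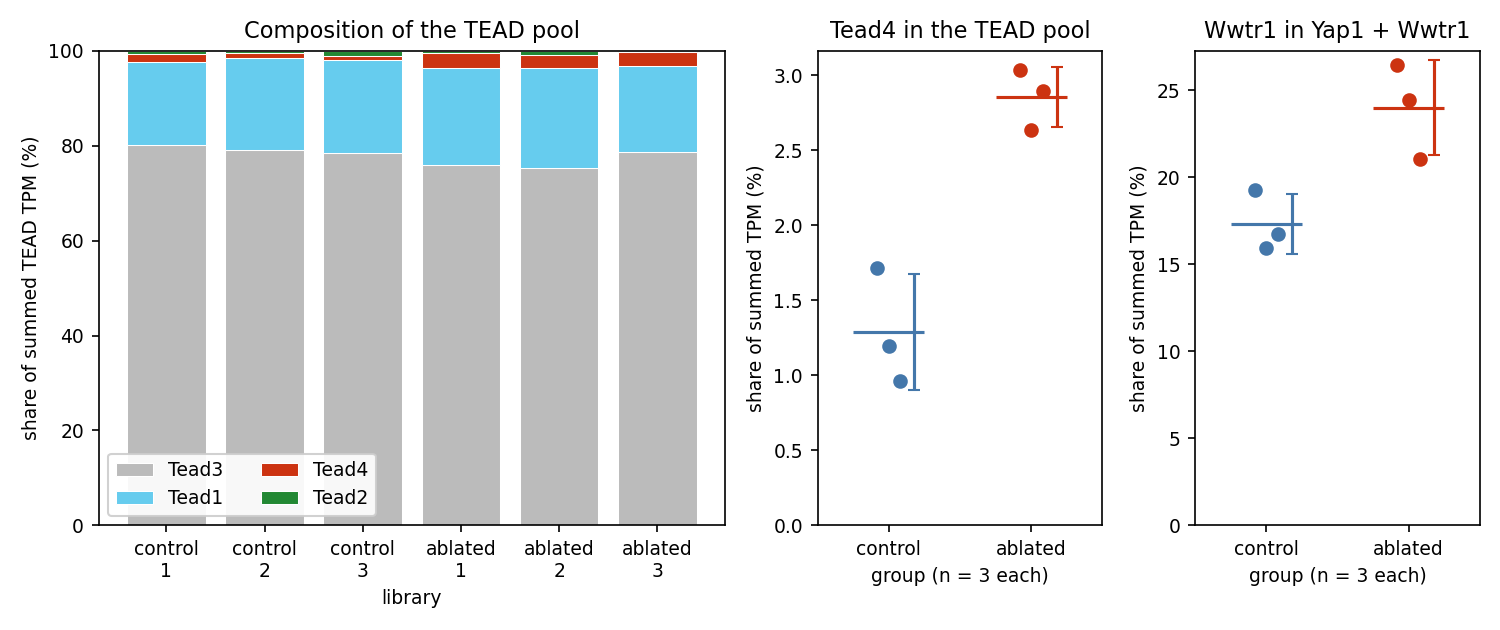
Left, share of *Tead1* to *Tead4* in their summed TPM (percent, stacked) in each library. Middle and right, share of *Tead4* in the TEAD pool and of *Wwtr1* in *Yap1* plus *Wwtr1* (percent), with points for libraries, horizontal lines for means and bars for SD (n = 3 each), and in both every ablated library lies above every control.

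Among the cofactors *Vgll1* (gene 170828), a TEAD partner of epithelia and trophoblast, had the largest difference and the lowest control level. It had 0.73, 1.18 and 1.79 TPM in the controls and 3.10, 2.04 and 2.60 TPM in the ablated libraries, from 16, 25 and 38 counts and from 68, 43 and 54 counts. All ablated libraries lay above all controls, by as little as 1.14 times between control 3 and ablated 2. The log2 fold change was 1.11 (standard error 0.339), with an adjusted p of 0.0657 in edgeR and 0.0373 in DESeq2. For control 3 the exact Poisson 95% interval was 26.9 to 52.2 counts and for ablated 2 it was 31.1 to 57.9, so these 2 libraries overlap in counting error. Within each group the libraries had the same order in *Vgll1* as in the summed conjunctival and goblet cell markers, which were 1391, 1851 and 2324 TPM in controls 1, 2 and 3 and 4677, 2180 and 2899 in ablated 1, 2 and 3. *Krt13* was the larger part of that sum in every library. Within each group *Krt4*, *Krt13* and *Krt19* had the order of *Vgll1*. *Agr2*, of the same list, had that order in the controls, with 7.31, 12.56 and 14.37 TPM in controls 1, 2 and 3. In ablated 1, 2 and 3 it had 9.72, 5.81 and 11.04 TPM, an order other than that of *Vgll1*. *Spdef* and *Tff1* had at most 0.38 TPM in any library. Between the groups the orders of *Vgll1* and the sum also differed, since ablated 2 lay below control 3 in the sum and above it in *Vgll1*. The part of conjunctival and goblet cells was not tested.

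*Vgll4* (gene 232334), known as a repressor that competes with YAP for TEAD, was the most abundant cofactor gene. Its level was 44.4, 48.6 and 47.7 TPM in the controls and 41.4, 45.9 and 44.8 TPM in the ablated libraries, and the groups overlapped (log2 fold change -0.04, standard error 0.0686, adjusted p = 0.698 in edgeR). *Vgll3* (gene 73569), a cofactor linked in skin to inflammatory gene expression, had 21.1, 14.2 and 15.4 TPM in the controls and 20.6, 17.3 and 18.02 TPM in the ablated libraries. Control 1 was the highest of all 6 libraries for *Vgll3*, and it differed by 0.17 on the log2 scale (standard error 0.171, adjusted p = 0.519 in edgeR).

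The 3 cofactor genes summed to 64.0 to 66.3 TPM in the controls and 65.1 to 65.4 TPM in the ablated libraries. *Vgll1* was 1.10, 1.84 and 2.76% of that sum in the controls and 4.76, 3.13 and 3.97% in the ablated libraries. *Vgll4* per TEAD transcript was 0.248, 0.277 and 0.267 in the controls and 0.232, 0.246 and 0.231 in the ablated libraries, which did not overlap but came within 0.002 of each other. These ratios were chosen after the levels were seen and were given no test.

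Ordered by mean TPM in the controls, the genes ran *Tead3*, *Yap1*, *Vgll4*, *Tead1*, *Wwtr1*, *Vgll3*, *Tead4*, *Tead2* and *Vgll1*. *Tead3* and *Yap1* overlapped, as did *Tead4* with *Tead2* and *Tead2* with *Vgll1*, while the other neighbours were separated in all 3 libraries. In the ablated libraries *Wwtr1* stood above *Tead1*, though *Vgll4*, *Wwtr1* and *Tead1* overlapped in turn, and *Tead4* was separated from *Vgll1* and *Vgll1* from *Tead2*. All 9 genes together summed to 404 to 419 TPM in the controls and 412 to 434 TPM in the ablated libraries.

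**Figure D4:**
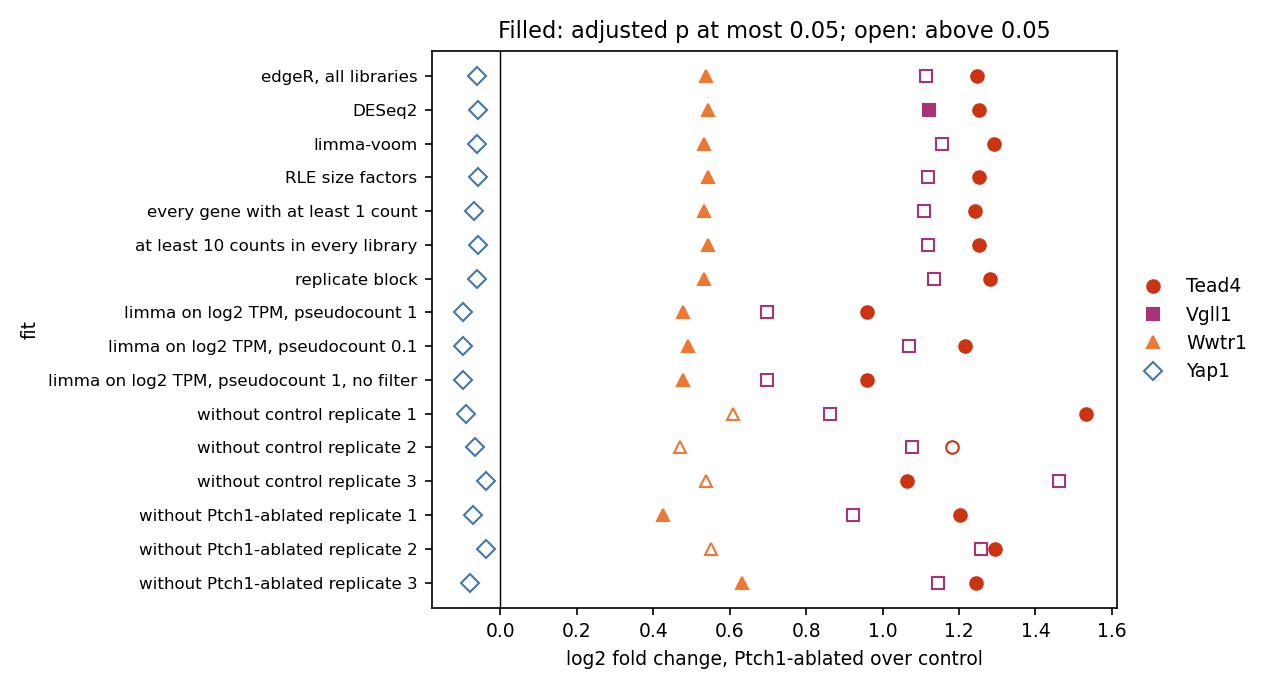
Log2 fold change of *Tead4*, *Vgll1*, *Wwtr1* and *Yap1*, *Ptch1*-ablated over control (horizontal axis), in the reported fit and in each of 15 alternatives (rows), filled where the adjusted p was at most 0.05. *Tead4* lies between 0.96 and 1.53 and is open only without control 2, *Wwtr1* is open in 4 rows, *Vgll1* is filled only in DESeq2, and *Yap1* stays between -0.10 and -0.04.

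The other genes of the pathway were described from 4 lists. Of 24 tested genes of the Hippo kinase core and its upstream regulators, 4 were higher and 1 was lower at an adjusted p of at most 0.05 in edgeR, against 7.61% higher and 6.41% lower over all tested genes, and the 1 lower gene is near that share. The median log2 fold change was 0.07, and -0.01 over all tested genes. The 4 were kinases or kinase activators placed around the core, *Taok3* (0.51, adjusted p = 0.0139), *Stk38l* (0.58, adjusted p = 0.0281), *Map4k4* (0.50, adjusted p = 0.0387) and *Taok1* (0.28, adjusted p = 0.0401), and *Map4k2* was lower (-0.70, adjusted p = 0.0422). The core kinases themselves, named for their role and not by their values, did not pass the test. The log2 fold change was 0.19 for *Lats1* (adjusted p = 0.0766), 0.35 for *Lats2* (adjusted p = 0.0595), 0.31 for *Stk3* (adjusted p = 0.0934) and -0.05 for *Stk4* (adjusted p = 0.611), all in edgeR.

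Of 22 tested genes for proteins that bind or anchor YAP and TAZ, 5 were higher and 0 lower in edgeR, against 7.61% and 6.41% of all tested genes. The list had a median of 0.14. At an unadjusted p of at most 0.05 there was 1 lower gene, as in DESeq2, and limma-voom had 0. *Sfn*, the gene of the epithelial 14-3-3 sigma protein, rose from a mean of 1909 to 3172 TPM (log2 fold change 0.77, adjusted p = 0.0133 in edgeR). The junction scaffold gene *Tjp1* (0.37, adjusted p = 0.0208 in edgeR) and the 14-3-3 gene *Ywhah* (0.38, adjusted p = 0.0362 in edgeR) rose by less.

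Of 17 tested genes for DNA-binding partners, 5 were higher, against 7.61% of all tested genes, and 3 of them by at least 2-fold, against 2.34%. Their median was 0.31. None of them was lower, whether by adjusted p in edgeR, DESeq2 or limma-voom or by an unadjusted p of at most 0.05 in edgeR (0 in each). The AP-1 gene *Jun* had 56.9, 62.2 and 61.1 TPM in the controls and 421, 309 and 227 TPM in the ablated libraries (log2 fold change 2.47, adjusted p = 0.00436 in edgeR). *Fosb* rose by 2.57 (adjusted p = 0.0105), *Runx1* by 0.82 (adjusted p = 0.00857) and *Junb* by 0.73 (adjusted p = 0.0107) on the log2 scale in edgeR. *Jun*, *Fosb* and *Junb* are immediate early genes, which also respond to the handling of tissue, and the part of handling was not tested.

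Among 23 tested genes known as YAP and TEAD targets the directions were mixed. In edgeR 3 were higher, against 7.61% of all tested genes, and 2 were lower, against 6.41%, a count near that share. All 3 higher genes rose by at least 2-fold, against 2.34% of all tested genes. With 23 genes these shares are coarse. DESeq2 gave 6 higher and 3 lower, where 2520 of all genes passed in either direction. The median was 0.05, with 14 genes above 0. *Nt5e*, the ectonucleotidase CD73, had 3.96, 4.76 and 8.20 TPM in the controls and 34.3, 15.8 and 33.7 TPM in the ablated libraries (log2 fold change 2.36, adjusted p = 0.0119 in edgeR). *Ccn1*, a matricellular protein gene, had 80.7, 83.6 and 75.7 TPM against 307, 243 and 129 (1.56, adjusted p = 0.0212 in edgeR). *Areg*, which encodes the EGF receptor ligand amphiregulin, had 16.9, 7.84 and 10.0 TPM against 59.7, 31.1 and 30.5 (1.85, adjusted p = 0.0256 in edgeR). All 3 genes were separated between the groups, and the part of tissue handling was not tested for them either.

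The target genes *Fjx1* (-0.58, adjusted p = 0.0288 in edgeR) and *F3*, the tissue factor gene (-0.57, adjusted p = 0.0413 in edgeR), were lower. *Ccn2*, often used as a readout of YAP activity and named for that use, had only 0.87 to 1.92 TPM in the controls and 0.94 to 2.74 in the ablated libraries (log2 fold change 0.58, adjusted p = 0.392 in edgeR). Over the 4 lists together 20 different genes passed the test, and 2 did so when control 2 was left out.

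**Figure D5:**
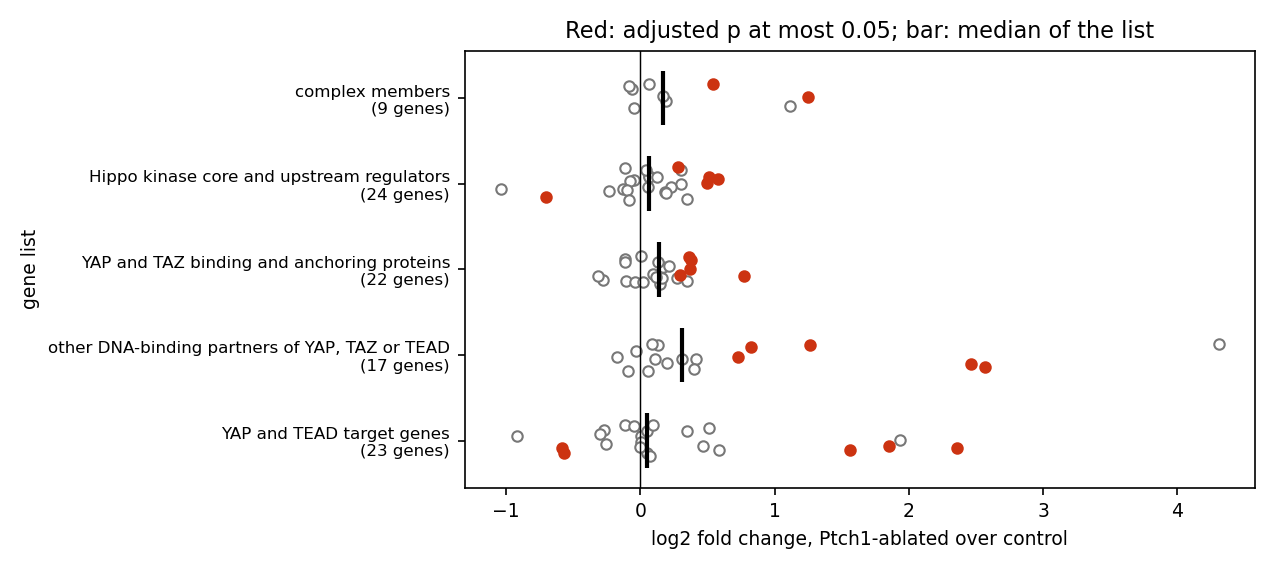
Log2 fold change, *Ptch1*-ablated over control (horizontal axis), of the 9 complex genes and of the tested genes of the 4 pathway lists (rows), each point 1 gene and each bar the median. Red marks an adjusted p of at most 0.05 in edgeR, and the DNA-binding partners have the highest list median of the 4 pathway lists, at 0.31.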

How the data were processed

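RNA-seq values of 3 control and 3 *Ptch1*-ablated corneal epithelium samples were used, grouped by the labels. The authors aligned reads with Bowtie2 2.2.5 and quantified genes with RSEM 1.2.12, and the submitters' processing notes name mm9. The authors deposited RSEM's expected counts, not scaled for depth, with TPM and FPKM values, which RSEM scales for gene length and depth. FPKM values and the authors' group means were not used. The study describes rRNA depletion and nanoball sequencing, the labels an Illumina kit.

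Expected counts (39.4% of values above 0 were not whole) were rounded and tested with edgeR 4.0.16 in R 4.3.3 (TMM factors 0.960 to 1.03, filterByExpr, quasi-likelihood test, Benjamini-Hochberg adjustment), with the study's thresholds of 0.05 and 2-fold. Levels between genes and pool shares used TPM, and shares were compared by exact permutation over libraries. Libraries of a group differed by more than sampling noise (chi-square per degree of freedom 10.1 to 37.8). Alternatives were DESeq2 1.42.0, limma-voom and limma 3.58.1 on log2(TPM + 1) or log2(TPM + 0.1) with a mean TPM of at least 1, other size factors and filters, a replicate block and each library left out. The procedure was tested on simulated data.

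Genes were named by rule: all members, *Ptch1*, up to 4 genes per list and direction with the smallest adjusted p at or under 0.05, and the 5 genes most like *Tead4* or *Wwtr1*, with markers by level. A gene that meets the rule is not reported here. The Hippo core kinases, *Ccn2* and the Y-linked genes were added outside it. Members and lists were chosen with earlier results of these data known, and the motif and sequence comparisons and the extra ratios after the values were seen.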

Additional observations from a re-analysis of the deposited data

How the results depend on the processing

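*Tead4* kept an adjusted p of at most 0.05 in 14 of 15 alternatives to the edgeR test and *Wwtr1* in 11 of 15, the exceptions being libraries left out. The 420 calls over all genes became 234 with limma on log2(TPM + 1), 168 with the same and no filter, 1822 with no minimum fold change, and 59 to 430 with single libraries left out. Genes at an adjusted p of 0.05 numbered 1822, 798 with limma without a filter, and 93 to 1325 with libraries left out, lowest in each case without control 2. The number of members called was 1, with 2 in DESeq2 and without a minimum fold, 0 with limma on log2(TPM + 1), with or without a filter, and 0 to 1 with libraries left out. Members at an adjusted p of 0.05 numbered 2, with 3 in DESeq2 and 0 to 2 with libraries left out. Of the pathway lists 20 genes passed, 30 in DESeq2, 13 with limma without a filter and 2 to 21 with libraries left out. The pseudocount lowers the fold of a gene as scarce as *Tead4*, whose log2 fold change was then 0.96. Fewer libraries also mean fewer residual degrees of freedom. *Tead2* reversed to 0.37 without control 3 and 0.22 without ablated 3, within a range of -0.51 to 0.37. Computed from counts in place of TPM, the *Tead4* share differed by 1.15 points and not 1.56.

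With a replicate block *Tead4* had a log2 fold change of 1.28 (adjusted p = 0.0189 in edgeR) and *Wwtr1* of 0.53 (adjusted p = 0.0191 in edgeR), and the block changed no call among the members. Deviations of same-numbered libraries correlated at 0.0996, -0.0578 and 0.00617, so the numbers were not taken as pairs. Depth limits *Tead2* and *Vgll1*, which had 12 to 68 counts a library.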

Other observations

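The genes most like *Tead4* across the 6 libraries, by Pearson's r of log2 CPM among 9003 genes with a mean of at least 10 CPM, were *Diaph1*, a formin of the actin cytoskeleton (r = 0.998), *Arih2*, a ubiquitin ligase (0.998), *Ninj1*, a membrane protein of cell adhesion and rupture (0.995), *Tiparp*, an ADP-ribosyltransferase induced by the aryl hydrocarbon receptor (0.994), and *Haus6*, an augmin subunit of the spindle (0.994). Their own log2 fold changes were smaller than that of *Tead4*, from 0.18 to 0.63. *Tiparp* had a mean of 51.7 TPM in the controls and 78.0 in the ablated libraries (adjusted p = 0.0186 in edgeR), whereas *Diaph1* went from 113 to 125 TPM and did not pass the test (adjusted p = 0.0908 in edgeR).

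The 5 genes most like *Wwtr1* were *Fbxo34*, an F-box protein gene (r = 0.996), *Golga5*, a golgin (0.996), *Nsun2*, an RNA methyltransferase (0.996), *Glt28d2*, a glycosyltransferase domain gene (0.995), and *Itgb1*, an integrin beta subunit of adhesion to the matrix (0.995). *Itgb1* had a mean of 88.1 TPM in the controls and 109.7 in the ablated libraries (log2 fold change 0.36, adjusted p = 0.0375 in edgeR). *Tead4* and *Wwtr1* had an r of 0.889 with each other. These values describe only how alike the levels ran over 6 libraries in 2 groups. An r of at least 0.9 was reached by 457 genes for *Tead4* and by 899 for *Wwtr1*.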
